A study of Mus musculus with 4 samples.

Results

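Hypoxia-inducible genes were followed through 8 mouse brain slices taken before and after photothrombotic (PT) injury, a model in which a light-activated dye clots the vessels of a small area of cortex. The set holds 10 of the 32285 genes counted, chosen by name: Slc2a1, Vegfa, Adm, Ldha, Pgk1, Bnip3, Ndrg1, Ankrd37, Egln3 and Car9. When oxygen is scarce, prolyl hydroxylases stop marking the α subunits of hypoxia-inducible factors (HIF) for destruction, and the stabilised factors bind DNA with Arnt and raise genes for glucose uptake, glycolysis, vessel growth and survival. In the brain these genes are known as an early answer to vessel occlusion, and several of them also have high levels in particular cells without hypoxia, such as Slc2a1 in the endothelium of the blood–brain barrier and Ndrg1 in oligodendrocytes.

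RNA was captured on 4 Visium areas, slides on which each barcoded spot collects the RNA of the several cells above it, and each area carried 2 slices from different mice. The mice were at rest (1), at 2 days post-injury (dpi; 1), at 7 dpi (2), and at 21 dpi as wild type (WT; 2) or as Cthrc1(creER); R26(DTA) (2), a cross meant to let tamoxifen remove myofibroblasts; slices at rest, 2 dpi and 7 dpi were WT. The study detected no deletion in the last group and set it aside. These slices are called deleter slices here and served as a further pair at 21 dpi. General methods gave C57BL/6 or mixed backgrounds, both sexes and an age of 7–21 weeks for mice of the study, without a value for single slices. Time point and genotype coincided with the capture area at 7 and 21 dpi, while the slices at rest and at 2 dpi shared an area. Which piece of that area was which is not in the labels. The smaller piece, of 1017 spots, was taken as the slice at rest and the larger, of 1726, as that at 2 dpi. Xist, the RNA of the inactive X chromosome, lay at 0.948 and 1.06 unique molecular identifiers (UMIs) per 10000 at 7 dpi and at most 0.00229 in the WT slices at 21 dpi, so that sex also coincided with time point there; the deleter slices had 0.803 and 0.00802.

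The number of spots ranged over 827–1726 and the total over 11332780–23677298 UMIs for each slice. The median spot held 12447–16158 UMIs, except at 2 dpi, where it held 2633.5. In that slice 777 spots had under 2000 UMIs, 761 of them in a single connected patch, 651 had at least 8000 and 298 lay between. At 7 and 21 dpi, spots with at least 5 UMIs of Col1a1, a collagen gene, per 10000 were taken as fibrotic tissue: 112 and 392 spots at 7 dpi, 170 and 203 in WT slices at 21 dpi, and 193 and 274 in the deleter slices. Without spots at the tissue edge, 35 and 320 of them remained at 7 dpi, so most fibrotic spots of slice 1 lay at the edge. At 21 dpi, 111 and 156 remained in WT and 126 and 205 in deleter slices. Spots 1–2 array steps from a fibrotic spot formed a ring, and spots at 3 or more steps were called distant. The fibroblast markers other than Col1a1 (Col1a2, Dcn, Lum, Pdgfra and Col3a1) summed to 37.8–105 UMIs per 10000 in fibrotic spots and 1.19–1.93 in distant spots. Levels below are UMIs per 10000 UMIs of the same spots. A lower level can thus come from fewer cells of a type, less RNA of the gene per cell or more RNA of other genes. These cannot be told apart. Intervals are 95% exact intervals that cover counting error only.

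The core of the HIF-binding site is ACGTG or GCGTG, and the promoters of 4 members are shown to let a reader see where these letters lie: Pgk1 and Bnip3, both called lower in fibrotic tissue at 21 dpi, and Ldha and Egln3, both called higher in the ring at 7 dpi. RefSeq start sites gave an upstream window of 250 bases for 9 of the 10 members (all but Ndrg1), in 11 windows, and 10 of the windows held at least 1 of the motifs on either strand. Over 32851 RefSeq windows of the same length, 16.6% held ACGTG, 28.2% held GCGTG and 38.6% held either, while 16.7% held at least 2 matches and 1.01% at least 5. Capitals mark the motifs, read on the printed strand or as their reverse complements CACGT and CACGC; overlapping matches merge into one run of capitals, as in CACGTG, which counts on both strands. The windows are 5′ to 3′ on build GRCm38.p6 (mm10): Ldha, which encodes the muscle-type subunit of lactate dehydrogenase, at chr7:46845554-46845803 (plus strand, 5 matches); Pgk1, phosphoglycerate kinase, at chrX:106186850-106187099 (plus, 2 matches); Bnip3, a mitophagy receptor, at chr7:138909507-138909756 (minus, 5 matches); and Egln3, a prolyl hydroxylase, at chr12:54203875-54204124 (minus, 1 match).
Ldha: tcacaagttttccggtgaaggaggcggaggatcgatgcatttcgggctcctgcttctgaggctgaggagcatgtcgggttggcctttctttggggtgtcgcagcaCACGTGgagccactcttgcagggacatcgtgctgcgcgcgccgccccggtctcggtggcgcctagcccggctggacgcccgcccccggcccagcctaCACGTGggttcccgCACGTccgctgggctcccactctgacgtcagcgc
Pgk1: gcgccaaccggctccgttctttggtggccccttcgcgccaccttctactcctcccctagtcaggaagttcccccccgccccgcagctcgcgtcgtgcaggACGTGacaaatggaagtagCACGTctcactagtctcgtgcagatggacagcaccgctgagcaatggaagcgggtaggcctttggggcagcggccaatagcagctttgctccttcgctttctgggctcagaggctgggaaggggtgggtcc
Bnip3: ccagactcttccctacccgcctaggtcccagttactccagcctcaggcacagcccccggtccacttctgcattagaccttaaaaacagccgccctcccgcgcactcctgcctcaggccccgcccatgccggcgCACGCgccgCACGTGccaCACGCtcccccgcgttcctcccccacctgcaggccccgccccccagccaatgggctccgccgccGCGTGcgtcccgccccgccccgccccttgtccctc
Egln3: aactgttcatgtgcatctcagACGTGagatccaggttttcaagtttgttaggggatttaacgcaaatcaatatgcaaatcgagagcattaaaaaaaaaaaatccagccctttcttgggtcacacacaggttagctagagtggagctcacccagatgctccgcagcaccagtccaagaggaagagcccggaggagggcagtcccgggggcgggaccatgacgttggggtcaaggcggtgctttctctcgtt
The other members lie, in the mm10 annotation GENCODE M21, at chr4:119108711-119137983 (Slc2a1, plus strand), chr17:46016993-46032369 (Vegfa, minus), chr7:110627661-110629820 (Adm, plus), chr15:66929318-66969640 (Ndrg1, minus), chr8:45996902-46005707 (Ankrd37, minus) and chr4:43506966-43513729 (Car9, plus). Ldha has a further RefSeq start with 1 match in its window. A match is a string of letters and does not show binding.

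Across whole slices, Slc2a1, Car9, Egln3 and Ndrg1 had their lowest level at rest and Bnip3 had its highest. The slice at rest came from 1 mouse, and the share of all genes lowest or highest there was not counted. Between the whole slices at 2 dpi and at rest, 2296 of 15197 genes with at least 20 UMIs were at least 2-fold higher at 2 dpi, and 537 at least 2-fold lower. Slc2a1, the glucose transporter of the blood–brain barrier, lay at 0.451 (0.419–0.485) UMIs per 10000 at rest, 0.801 at 2 dpi, 0.884 and 1.09 at 7 dpi, 0.842 and 0.644 at 21 dpi, and 1.02 and 0.821 in the deleter slices. All 7 injured slices were above the resting slice, and the lowest of them, WT slice 2 at 21 dpi, had an interval of 0.598–0.693. Car9, a cell-surface carbonic anhydrase and classic HIF target, had 0 UMIs at rest, where 3 UMIs would give 0.00183 per 10000. Its level was 0.0206 at 2 dpi, 0.0166 and 0.0259 at 7 dpi, 0.0217 and 0.0282 at 21 dpi, and 0.00933 and 0.00676 in the deleter slices, from 12–38 UMIs each. Egln3, an oxygen sensor that is itself a HIF target, lay at 0.0293 at rest (48 UMIs), 0.0535 at 2 dpi, 0.0852 and 0.113 at 7 dpi, 0.0640 and 0.0529 at 21 dpi, and 0.0536 and 0.0384 in the deleter slices. The 2 slices at 7 dpi had its highest levels. Bnip3 was the reverse, with 1.40 (1.35–1.46) at rest and 0.978–1.14 in the 7 injured slices. The slices also held different shares of tissue. A list of neuron markers summed to 45.9 UMIs per 10000 at rest and 24.0–41.5 after injury, and a choroid plexus list to 5.42 and 3.40–192. Like Slc2a1 and Ndrg1, a brain endothelium list and an oligodendrocyte list were lowest at rest. They summed to 1.21 and 32.1 there, and to 1.74–2.26 and 35.4–58.1 after injury. The part of this in the members' levels was not tested.

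Of the remaining members, Ndrg1 was above its resting level in all 7 injured slices, and the others lay on both sides of theirs. Ldha, which turns pyruvate into lactate, lay at 3.74 at rest, 4.41 at 2 dpi, 4.47 and 5.22 at 7 dpi, and 3.58–3.98 over all 4 slices of 21 dpi. Its slices at 2 and 7 dpi were above all others. Pgk1, a glycolytic enzyme encoded on the X chromosome, was at 4.91 at rest, 5.13–5.37 at 2 and 7 dpi, and 4.03–4.69 at 21 dpi. Ndrg1, a stress-responsive gene of oligodendrocytes, was at 0.928 at rest, 1.18 at 2 dpi, 1.32 and 1.03 at 7 dpi, and 1.49–1.86 over the 4 slices of 21 dpi. Vegfa, the growth factor of vessels, lay at 0.402 at rest and 0.325–0.404 after injury, and Ankrd37, a small ankyrin-repeat protein, at 0.128 and 0.0909–0.144, so that both resting values fell within the range of the injured slices. Adm, which encodes the vasodilator peptide adrenomedullin, was sparse, at 0.0220 at rest and 0.0160–0.0481 after injury. Between 7 and 21 dpi (WT, whole slices), none of the 10 members passed edgeR's quasi-likelihood test at an adjusted p of 0.05, where 0.00629% of all 15907 genes tested did so; Ndrg1 came closest (log2 fold change −0.54, adjusted p = 0.247). At an unadjusted p under 0.05 the same test took 2027 genes, and DESeq2 called 345 after adjustment, Ndrg1 among them with an adjusted p of 0.0490.

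**Figure D1:**
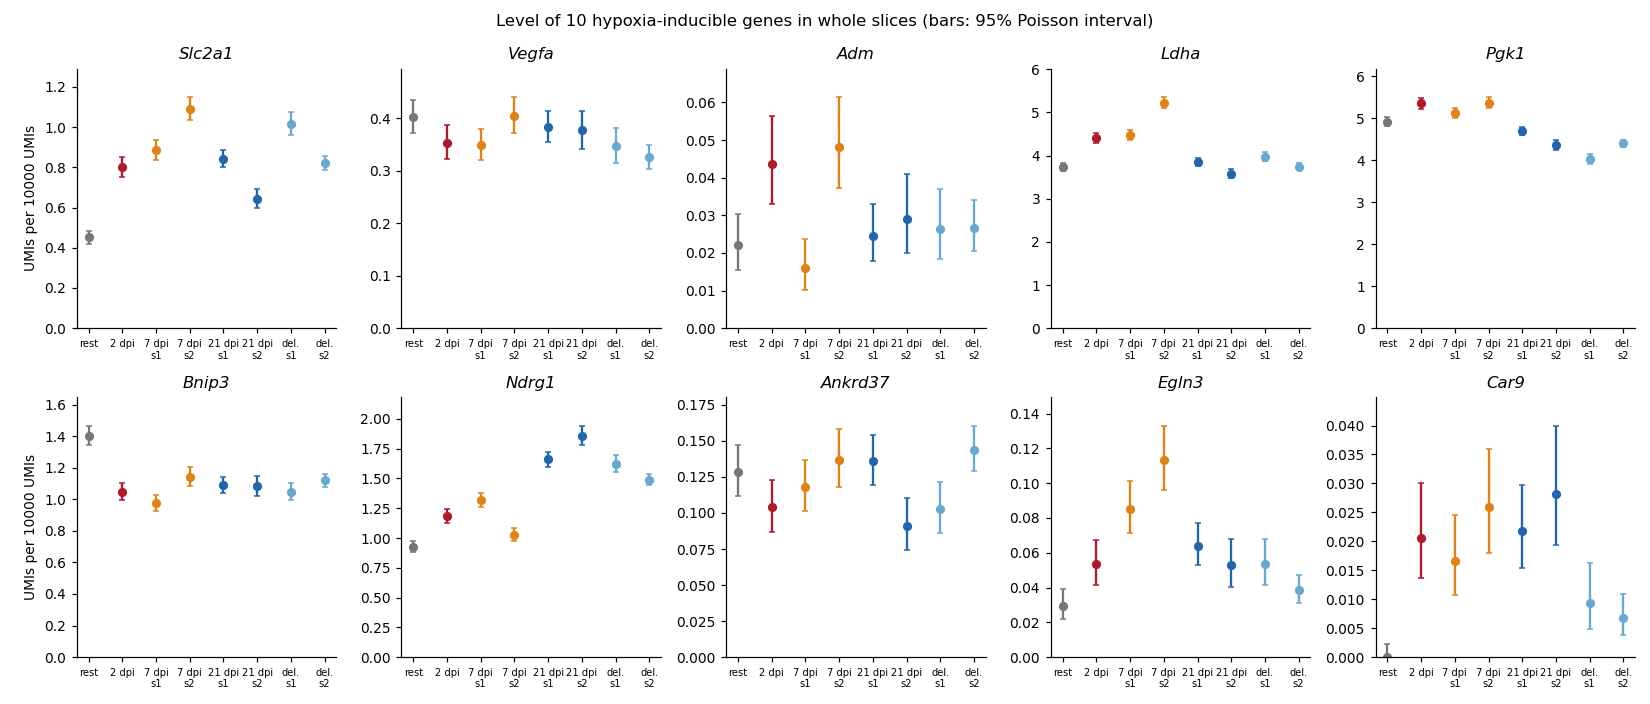
Each panel gives a member's level in the 8 slices, in UMIs per 10000 over all tissue spots, with 95% exact Poisson intervals as bars and colours for the groups. Slc2a1, Car9, Egln3 and Ndrg1 were lowest at rest (0.451, 0, 0.0293 and 0.928), Bnip3 was highest there (1.40), and Ldha and Egln3 were highest at 7 dpi (4.47 and 5.22, and 0.0852 and 0.113). The share of all genes lowest or highest at rest was not counted.

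At 2 dpi, the members were not higher as a group in the RNA-poor part of the slice. In spots with under 2000 UMIs, Ldha lay at 3.88 UMIs per 10000, Pgk1 at 4.60, Slc2a1 at 0.542 and Ndrg1 at 0.825, against 4.28, 5.38, 0.800 and 1.21 in spots with at least 8000. The ratio was 0.677 (0.489–0.917) for Slc2a1, 0.680 (0.524–0.869) for Ndrg1, 0.855 (0.768–0.949) for Pgk1 and 0.906 (0.806–1.02) for Ldha, so that the first 3 were lower in the RNA-poor spots beyond counting error. With mitochondrial genes left out of the totals, the interval of Pgk1 held 1, while those of Slc2a1 and Ndrg1 stayed below it. The median log2 ratio was −0.08 over the 10 members, beside −0.12 over all genes. Bnip3, at 1.01 and 1.03, Vegfa, at 0.357 and 0.342, Ankrd37, at 0.148 and 0.0962, and Egln3, at 0.0493 and 0.0423, had ratios whose intervals held 1. Adm, at 0.0739 from 6 UMIs against 0.0324 from 36, was the only member past 2-fold in the higher direction, with a ratio of 2.28 (0.787–5.47) that its counting error does not separate from 1; 2.67% of the 13962 genes with at least 20 UMIs were at least 2-fold higher. Car9 was the only member past 2-fold in the lower direction, where 10.2% of genes were. It had 0 UMIs in the poor spots, with an interval up to 0.0454 per 10000, above its level of 0.0216 in the deep spots. A difference was thus not detectable at this depth. With 1 mouse at 2 dpi there was no replicate and no test.

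The RNA-poor spots held more neutrophil, red blood cell and mitochondrial RNA than the deep spots of the slice, and marker lists of other cells went both ways. The neutrophil list (S100a8, S100a9, Ly6g, Retnlg and Csf3r, with Ly6g at 0 in the patch) summed to 6.33 UMIs per 10000 there, against 0.931 in spots with at least 8000 UMIs and 0.0305 in such spots at rest. Mitochondrial transcripts were at 1753 per 10000 in the poor spots and 1111 in the deep ones. The red blood cell list was at 8.59 in the poor spots against 1.65 in the deep ones, and the microglia and macrophage list at 4.41 against 2.92. The neuron and oligodendrocyte lists were also higher in the poor spots, at 28.8 against 24.3 and 49.2 against 36.6. Lower in the poor spots were the astrocyte and choroid plexus lists, at 7.33 against 17.0 and 26.2 against 222. Their part in the members' values was not tested.

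Egln3, Adm and Ldha had higher levels at the margin of the patch. Egln3 was at 0.0507 UMIs per 10000 in the patch, 0.164 (0.0988–0.256) in spots 1–2 array steps outside it, 0.0569 at 3–5 steps, 0.0387 at 6–10 steps and 0.0320 beyond, from 4, 19, 18, 20 and 9 UMIs. Adm was at 0.0760, 0.121, 0.0506, 0.0251 and 0.0285, from 6, 14, 16, 13 and 8 UMIs. Ldha lay at 3.76 in the patch, 5.81 at 1–2 steps, 4.85 at 3–5, 4.13 at 6–10 and 4.04 beyond. For all 3, the first 2 steps held the highest level, above the patch and above the tissue farther out. For Egln3 and Adm, with 4 and 6 UMIs in the patch, the intervals of the patch and of 1–2 steps overlapped. For Adm, the intervals of 1–2 and 3–5 steps overlapped as well. These intervals thus did not separate the levels they belong to. The ratio of spots 1–2 steps from the patch to spots farther out was 3.89 (2.16–6.76) for Egln3, 3.64 (1.82–6.90) for Adm and 1.35 (1.24–1.46) for Ldha. Egln3 and Adm were the 2 members past 2-fold in the higher direction, where 5.65% of genes were, and Car9 (1 against 26 UMIs) was the one past it in the lower direction, where 9.11% were. Taking instead the spots with 2000 to under 8000 UMIs against those with at least 8000 gave ratios of 3.89 for Egln3, 4.01 for Adm and 1.41 (1.30–1.52) for Ldha, with 4.72% of genes at least 2-fold higher and 8.19%, but no member, at least 2-fold lower. By these depth classes Ankrd37 (1.53, 0.858–2.56), Vegfa (1.34, 0.987–1.79), Bnip3 (1.25, 1.04–1.48) and Slc2a1 (1.24, 1.01–1.51) also had ratios above 1, whereas Pgk1 was at 1.04 and Ndrg1 at 0.911. The median log2 ratio of the 10 members was 0.37 by depth class, beside −0.09 over all genes, and 0.08 by steps, beside −0.02. Both comparisons were added after the values had been seen.

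By distance from the patch, the other members did not have this order. Pgk1 lay at 4.50 in the patch, 5.57 at 1–2 steps and 5.25–5.75 farther out, and Bnip3 at 0.989, 1.09, 1.36, 0.998 and 0.794 from the patch outward. Vegfa stayed between 0.218 and 0.412 with no order. Slc2a1 was at 0.545 in the patch, 0.872 at 1–2 steps, 0.695 and 0.729 at the next distances, and 1.1 beyond 10 steps, and Ndrg1 at 0.824, 0.760, 0.701, 1.13 and 2.09. The highest level of both was in the farthest spots, where the choroid plexus list (Ttr, Kl and Folr1) summed to 703 UMIs per 10000 and the oligodendrocyte list to 60.7, against 12.9 and 30.8 at 1–2 steps. At the margin itself, the microglia and macrophage list summed to 9.77 and the neutrophil list to 6.46, against 2.72 and 1.01 at 3–5 steps, and the part of these cells in the values of Egln3, Adm and Ldha was not tested.

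**Figure D2:**
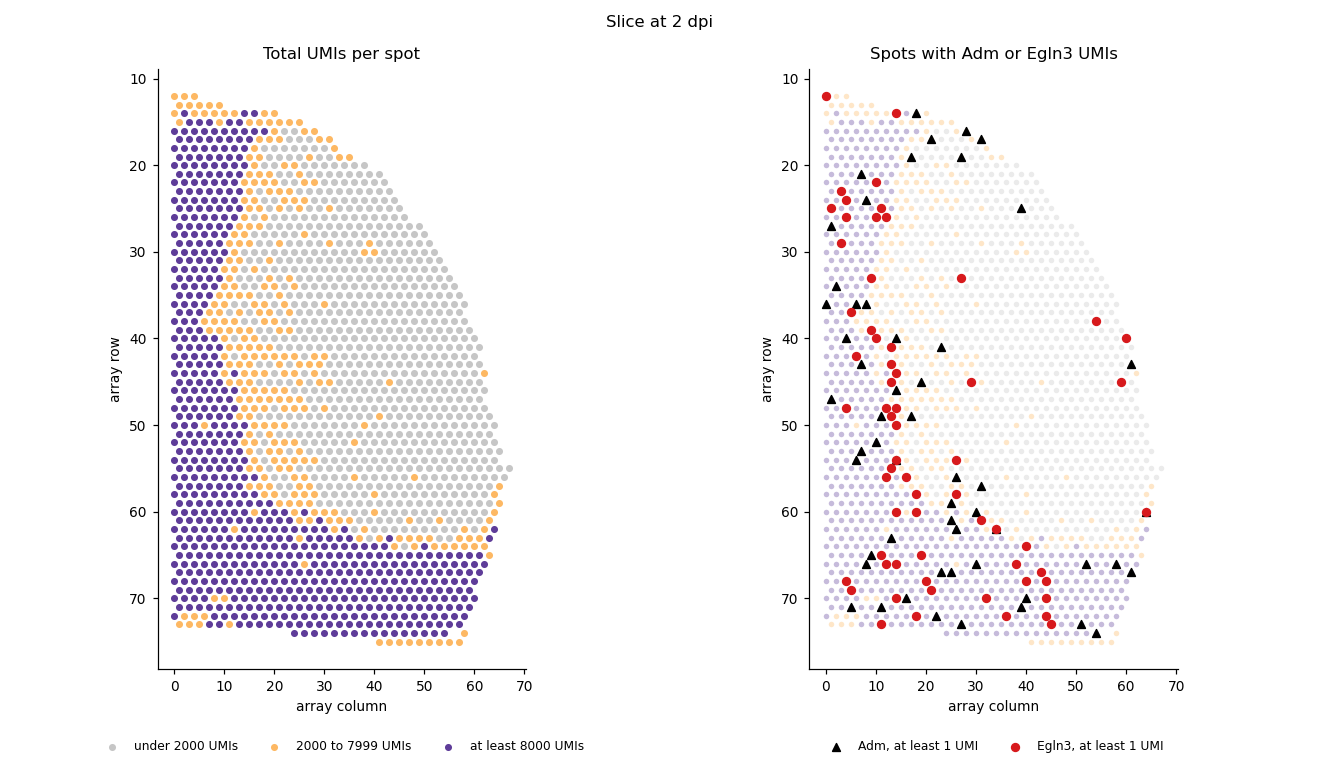
The slice at 2 dpi is drawn spot by spot on the array's own grid, coloured by the class of its total UMIs; the second panel adds the spots with at least 1 UMI of Adm (triangles) or Egln3 (circles). Low totals form a patch of 761 spots, and the 19 Egln3 UMIs at 1–2 steps from it lay in 265 spots, against 4 in the patch. Patch spots were chosen for low totals, so fewer UMIs of any gene are seen in them.

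**Figure D3:**
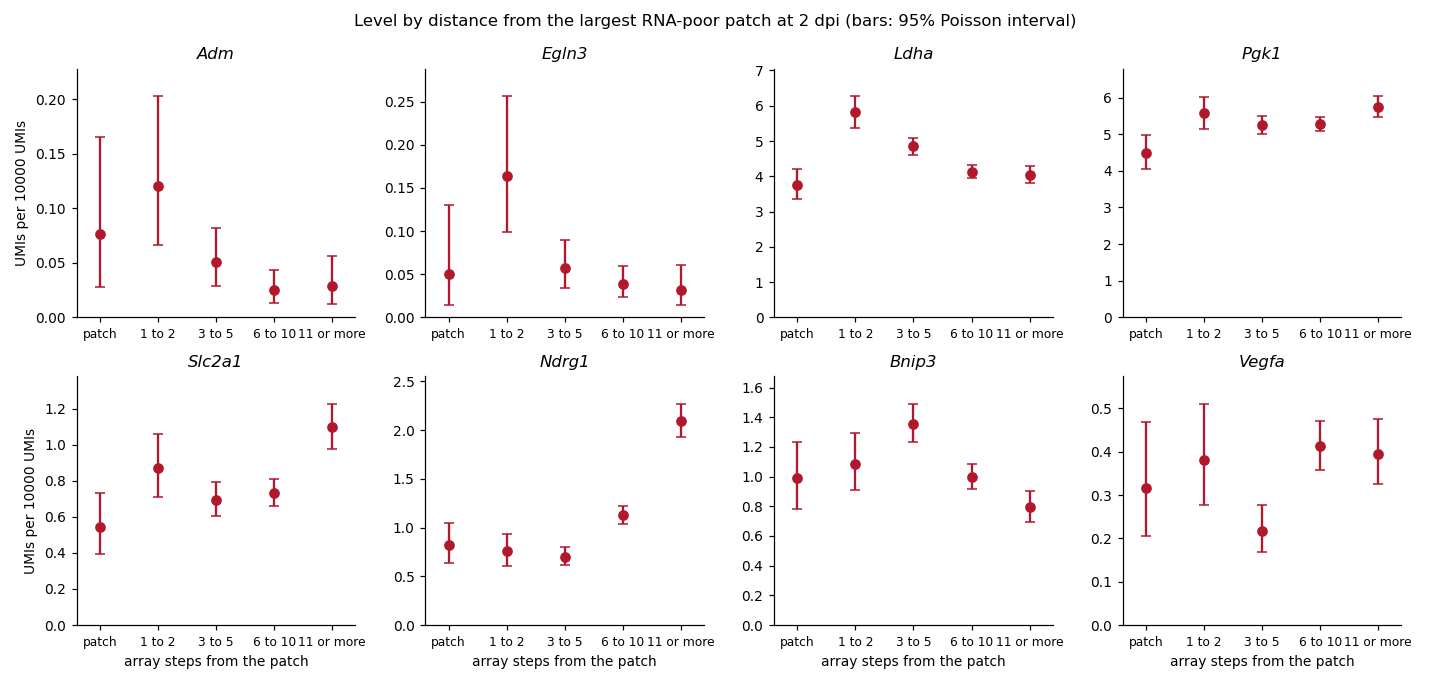
Levels at 2 dpi in UMIs per 10000 are plotted against distance from the RNA-poor patch in array steps, with 95% exact Poisson intervals as bars. Egln3, Adm and Ldha were highest at 1–2 steps (0.164, 0.121 and 5.81), where the intervals of Egln3 and Adm overlapped those of the patch. Slc2a1 and Ndrg1 were highest beyond 10 steps (1.1 and 2.09).

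Away from the patch, the deep spots at 2 dpi differed from those at rest in several members. Slc2a1 lay at 0.800 against 0.443 UMIs per 10000, a ratio of 1.81 (1.63–2.00), Ndrg1 at 1.21 against 0.922 (1.32, 1.22–1.42) and Ldha at 4.28 against 3.79 (1.13, 1.09–1.18). Bnip3 was lower, at 1.03 against 1.44, a ratio of 0.714 (0.664–0.767), as was Ankrd37, at 0.0962 against 0.129 (0.745, 0.584–0.946). Vegfa had a ratio of 0.876 (0.769–0.998) and Pgk1 of 1.08 (1.05–1.12), while the intervals of Egln3 (1.55, 1.00–2.39) and Adm (1.64, 0.987–2.74) reached 1. Car9 had 24 UMIs in the deep spots at 2 dpi and 0 at rest. It stood 11.3-fold higher than a floor of 3 UMIs in the resting spots, a value without the counting error of the 24 UMIs. It was the only member past 2-fold, where 15.5% of 15039 genes were at least 2-fold higher and 3.69% at least 2-fold lower, and the median log2 ratio of the 10 members was 0.29 beside 0.06 over all genes. The neuron list summed to 24.3 at 2 dpi and 46.8 at rest, the choroid plexus list to 222 and 5.49, and the brain endothelium list to 1.69 and 1.15, so the 2 slices held different shares of tissue; the part of this in the ratios was not tested.

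At 7 dpi, Ldha was higher in and around fibrotic tissue, and Ndrg1 and Bnip3 were lower in it. Ldha lay at 7.21 and 5.58 UMIs per 10000 in the fibrotic spots of slices 1 and 2, 7.83 and 6.39 in the ring, and 3.78 and 4.45 in distant spots. In each slice the ring was highest and the distant spots lowest, and the fibrotic and distant levels did not overlap. The log2 fold change of fibrotic against distant spots was 0.69 (SE 0.16, edgeR adjusted p = 0.00304), and that of the ring was 0.83 (SE 0.15, adjusted p = 0.00391). Farther out the level went on falling, from 5.35 and 5.75 at 3–5 steps to 3.73 and 3.88 at 6–10 steps and 2.45 and 2.89 beyond. The fibrotic effect shrank to 0.39 (adjusted p = 0.104) without slice 1.

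Egln3 followed Ldha outside the fibrotic spots. Its level was 0.177 and 0.0933 UMIs per 10000 in fibrotic spots, 0.206 and 0.194 in the ring and 0.0609 and 0.0906 in distant spots of slices 1 and 2, and at 0.113 and 0.170 at 3–5 steps, 0.0533 and 0.0344 at 6–10 steps and 0.0249 and 0.0435 beyond. The ring was above the distant spots in both slices, whereas the fibrotic level of slice 2 was close to its distant level. The ring effect was 1.48 (SE 0.31, adjusted p = 0.00743), and the fibrotic effect was 0.73 (SE 0.35, adjusted p = 0.103), with 1.62 (adjusted p = 0.0306) without slice 2 and 0.11 without slice 1.

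Ndrg1 took the opposite order. Its level was 0.590 and 0.767 in fibrotic spots, 0.450 and 0.583 in the ring and 1.5 and 1.41 in distant spots, with 1.03 and 1.08 at 3–5 steps and 1.74 and 2.12 beyond 10 steps. Fibrotic and ring spots of both slices were below all distant ones. The log2 fold change was −1.01 in fibrotic spots (SE 0.30, adjusted p = 0.0147), which missed the threshold without either slice (−0.81 and −1.27, adjusted p = 0.170 and 0.101), and −1.44 in the ring (SE 0.30, adjusted p = 0.00672). The oligodendrocyte list (Mbp, Mog, Mag and Cnp) was also highest in distant spots, at 54.1 and 56.3. It lay at 16.3 and 19.3 in the fibrotic spots and 20.1 and 22.9 in the ring. Between these compartments the order differed, since Ndrg1 was lower in the ring and the list was lower in fibrotic spots. The part of the list in the level of Ndrg1 was not tested.

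Bnip3 lay at 0.850 and 0.642 in fibrotic spots against 0.974 and 1.35 in distant spots, with 1.06 and 1.46 in the ring. The fibrotic spots were lowest in both slices and the ring was highest. The fibrotic effect was −0.62 (SE 0.18, adjusted p = 0.0131), and −0.12 (adjusted p = 0.691) without slice 2. Pgk1, at 4.81 and 3.75 in fibrotic, 6.17 and 6.29 in ring and 4.99 and 6.08 in distant spots, had a fibrotic effect of −0.31 (SE 0.14, adjusted p = 0.0862). Slc2a1 (−0.08), Vegfa (−0.17), Ankrd37 (−0.02), Adm (0.33) and Car9 (1.26) did not pass, the last 2 from 3 and 17 and from 2 and 17 UMIs in the fibrotic spots. In all, 1 member was called higher and 2 lower in fibrotic spots, where 24.2% and 23.1% of the 14503 genes tested were. In the ring 2 were called higher and 1 lower, against 12.1% and 6.81% of genes. All 3 ring calls depended on slice 1, since without it the effects were 0.53 for Ldha, 1.1 for Egln3 and −1.27 for Ndrg1 (adjusted p = 0.209, 0.214 and 0.237) and the calls over all genes went from 2746 to 19.

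In WT slices at 21 dpi, 4 members were called lower and 1, Egln3, higher in fibrotic tissue, where 28.6% and 28.0% of all genes were. In the deleter slices 3 were called lower and 3 higher, against 27.4% and 29.1%. Pgk1 lay at 2.34 and 2.45 UMIs per 10000 in the fibrotic spots of WT slices 1 and 2, 4.26 and 4.05 in the ring and 5.23 and 5.36 in distant spots, and at 2.22 and 2.32, 3.65 and 3.96, and 4.89 and 4.95 in the deleter slices. The order was fibrotic, ring, distant in all 4 slices, with no overlap between compartments. The log2 fold change of fibrotic against distant spots was −1.12 (SE 0.14, edgeR adjusted p = 2.51e-05) in WT slices and −1.13 (adjusted p = 2.50e-05) in the deleter slices, a comparison added after the values had been seen.

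Bnip3 and Ankrd37 gave the same order. Bnip3 lay at 0.581 and 0.564 in fibrotic, 0.943 and 0.979 in ring and 1.22 and 1.36 in distant spots of the WT slices, and at 0.537 and 0.548, 0.953 and 1.04, and 1.29 and 1.26 in the deleter slices. Again no compartment overlapped another. The effect was −1.15 (SE 0.18, adjusted p = 0.000123) in WT and −1.24 (SE 0.17, adjusted p = 6.37e-05) in deleter slices. Ankrd37 was at 0.0581 and 0.0245 in fibrotic, 0.119 and 0.0626 in ring and 0.155 and 0.131 in distant spots of the WT slices, with an effect of −1.82 (SE 0.31, adjusted p = 0.000272), and at 0.0467 and 0.0661, 0.0731 and 0.128, and 0.138 and 0.164 in the deleter slices (−1.43, adjusted p = 0.000656). Fibrotic and distant levels of Ankrd37 did not overlap in these 4 slices.

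Egln3 was higher in fibrotic tissue in WT and deleter slices at this time. Its level was 0.170 and 0.0981 in fibrotic spots, 0.0708 and 0.0491 in the ring and 0.0428 and 0.0336 in distant spots of the WT slices, and 0.109 and 0.105, 0.0526 and 0.0292, and 0.0335 and 0.0259 in the deleter slices. Every slice had the order fibrotic, ring, distant. The effect was 1.82 (SE 0.35, adjusted p = 0.000658) in WT and 1.86 (adjusted p = 0.000560) in deleter slices. Over 7 and 21 dpi together, Egln3 was higher in fibrotic than in distant spots in 6 of 6 slices and in the ring in 6 of 6, whereas Pgk1, Bnip3 and Vegfa were lower in fibrotic spots in 6 of 6. Many other HIF-linked genes also went one way in 6 of 6, such as Hif1a and Lox (higher) and Eno2 and Aldoa (lower). The share over all genes was not counted.

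Vegfa lay at 0.250 and 0.242 in fibrotic, 0.412 and 0.353 in ring and 0.401 and 0.447 in distant spots of the WT slices at 21 dpi, an effect of −0.76 (SE 0.18, adjusted p = 0.00258) that went to −0.62 (adjusted p = 0.0734) without slice 2. The fibrotic spots were lowest in both. In the deleter slices it was 0.288 and 0.300 against 0.390 and 0.324 (−0.28, adjusted p = 0.179). Adm, sparse throughout, lay at 0.0358 and 0.0561 in fibrotic against 0.0230 and 0.0192 in distant spots of the WT slices (1.12, SE 0.47, adjusted p = 0.0608) and at 0.0662 and 0.0661 against 0.0175 and 0.0156 in the deleter slices (2.01, SE 0.44, adjusted p = 0.00175; adjusted p = 0.0554 without deleter slice 2), from 8–24 UMIs in each fibrotic sum. All 4 fibrotic levels were above all 4 distant ones. Whether the effects of Vegfa or Adm differed between the genotypes was not tested.

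Slc2a1, Ldha, Ndrg1 and Car9 were not called at 21 dpi in WT slices. Slc2a1 lay at 0.881 and 0.578 in fibrotic against 0.833 and 0.588 in distant spots (0.05, adjusted p = 0.820), and at 1.31 and 0.934 against 0.835 and 0.749 in the deleter slices (0.47, SE 0.17, adjusted p = 0.0274, lost in 6 of 16 settings). Ldha was at 4.48 and 3.47 in fibrotic against 3.81 and 3.79 in distant spots, with 3.57 and 3.14 in the ring. Ndrg1 was at 1.89 and 2.19 in fibrotic, 1.39 and 3.14 in ring and 1.69 and 1.24 in distant spots (0.46, SE 0.27, adjusted p = 0.167). Its highest value, in the ring of slice 2, went with an oligodendrocyte list at 103.9, against 29.4 in the ring of slice 1. Car9 had 1 and 9 UMIs in the fibrotic spots of the 2 slices, and its effect of −0.15 turned to 2.25 (adjusted p = 0.0464) without slice 1. The median log2 fold change over the 10 members was −0.05 at 7 dpi and −0.05 in WT slices at 21 dpi, beside −0.02 and −0.03 over all genes tested. In the ring at 21 dpi no member was called, where 14.0% of genes were; the members nearest the threshold were Pgk1 (−0.38, adjusted p = 0.0864), Bnip3 (−0.45, adjusted p = 0.0935) and Ankrd37 (−0.69, adjusted p = 0.0967).

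**Figure D4:**
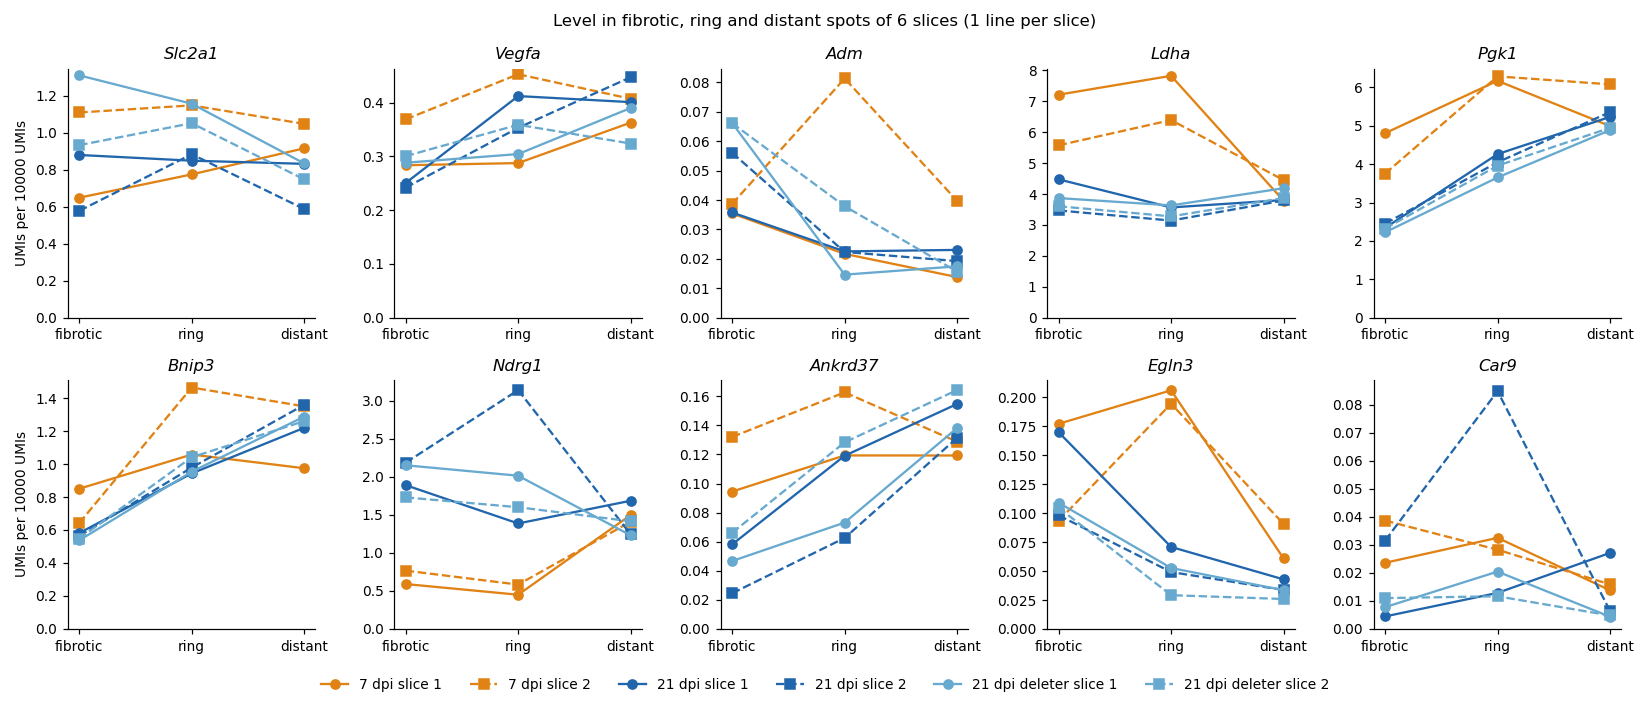
Points give each member's level, in UMIs per 10000, in the fibrotic, ring and distant spots of the 6 slices at 7 and 21 dpi, joined within a slice. Pgk1 and Bnip3 stepped up from fibrotic to distant spots in all 4 slices at 21 dpi, Egln3 stepped down in the same slices, and Ldha was high in fibrotic and ring spots of the 2 slices at 7 dpi (5.58–7.83) and at 3.14–4.48 in those of the slices at 21 dpi.

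The macrophage, neuron and endothelium lists differed between fibrotic and distant spots in the same direction at both times, whereas the astrocyte list did not. The astrocyte list summed to 10.9 and 11.4 UMIs per 10000 in fibrotic and 19.2 and 16.2 in distant spots at 7 dpi. In WT slices at 21 dpi it summed to 20.1 and 22.2 against 11.9 and 7.87. The oligodendrocyte list was lower in fibrotic than in distant spots except in WT slice 2 at 21 dpi (56.8 against 42.3). The microglia and macrophage list (Cd68, Aif1, Csf1r, Lyz2 and Cd14) summed to 39.8–77.3 UMIs per 10000 in fibrotic spots, 16.5–31.8 in the ring and 2.98–8.70 in distant spots of the 6 slices, and the neuron list to 7.67–12.7, 13.9–34.8 and 28.3–61.3. At 21 dpi, Pgk1, Bnip3 and Ankrd37 were low where the neuron list was low, and Egln3 was high where the macrophage list was high. At 7 dpi, Pgk1 and Bnip3 were likewise lower in fibrotic than in distant spots of both slices. Ankrd37 was not, since it was higher in the fibrotic spots of 1 of them. Egln3 was higher in the fibrotic spots of both, in slice 2 only narrowly. The ring at 7 dpi did not have this pairing. In it, Pgk1 and Bnip3 were higher and the neuron list was lower than in distant spots of both slices. Egln3 was higher and the macrophage list lower in the ring than in fibrotic spots of both slices at 7 dpi. The brain endothelium list summed to 2.58–3.77 in fibrotic and 1.29–2.20 in distant spots. How far the mix of cells makes up the members' differences was not tested.

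Compared directly, the fibrotic tissue of 7 dpi had more Pgk1 and Ldha and less Ndrg1 than that of WT slices at 21 dpi. Pgk1 lay at 4.81 and 3.75 against 2.34 and 2.45, without overlap, a log2 fold change of 0.86 (SE 0.16, edgeR adjusted p = 0.0130; 0.66 and adjusted p = 0.0564 without slice 1 at 7 dpi). Ldha lay at 7.21 and 5.58 against 4.48 and 3.47, again without overlap (0.71, SE 0.18, adjusted p = 0.0496), and lost the call in 7 of 12 settings. Ndrg1 lay at 0.590 and 0.767 against 1.89 and 2.19, with −1.52 (SE 0.18, adjusted p = 0.00140), and was called in 12 of 12 settings. The deleter slices stood with the WT slices at 21 dpi in all 3 genes, at 2.22 and 2.32 for Pgk1, 3.87 and 3.60 for Ldha and 2.15 and 1.73 for Ndrg1. The oligodendrocyte list was at 16.3 and 19.3 in the fibrotic spots at 7 dpi and at 12.0 and 56.8 in the WT slices at 21 dpi. Ankrd37 (1.61, adjusted p = 0.0748), Vegfa (0.50, adjusted p = 0.199), Slc2a1 (0.38), Bnip3 (0.35), Egln3 (−0.17) and Adm (−0.28) did not pass, and Car9 was too sparse to be tested. Of 9 members tested, 2 were called higher and 1 lower at 7 dpi, against 1.89% and 2.50% of 13289 genes, and their median was 0.38 beside 0.02 over all genes. Time point, capture area and sex cannot be told apart in this comparison.

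The difference between the fibrotic effects of the 2 time points was tested as well, and no member passed, where 0.331% of genes did; 2068 genes had an unadjusted p under 0.05. The differences of smallest adjusted p (7 minus 21 dpi, log2) were 1.79 for Ankrd37 (SE 0.42, adjusted p = 0.0995), 0.81 for Pgk1 (SE 0.20, adjusted p = 0.109) and −1.47 for Ndrg1 (SE 0.40, adjusted p = 0.144). Nor did a member pass for the ring effects, a test added later in which 0.0% of genes were called; there Ldha differed by 1.05 (SE 0.22, adjusted p = 0.153) and Ndrg1 by −1.96 (SE 0.41, adjusted p = 0.15), and DESeq2 called both. The calls at one time and not at the other are therefore not shown to differ between 7 and 21 dpi. WT and deleter fibrotic spots gave no call among 9 members either, with 0.0226% of genes called, and 839 at an unadjusted p under 0.05. The widest gap there was that of Slc2a1, at −0.63 (SE 0.26, adjusted p = 0.761).

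**Figure D5:**
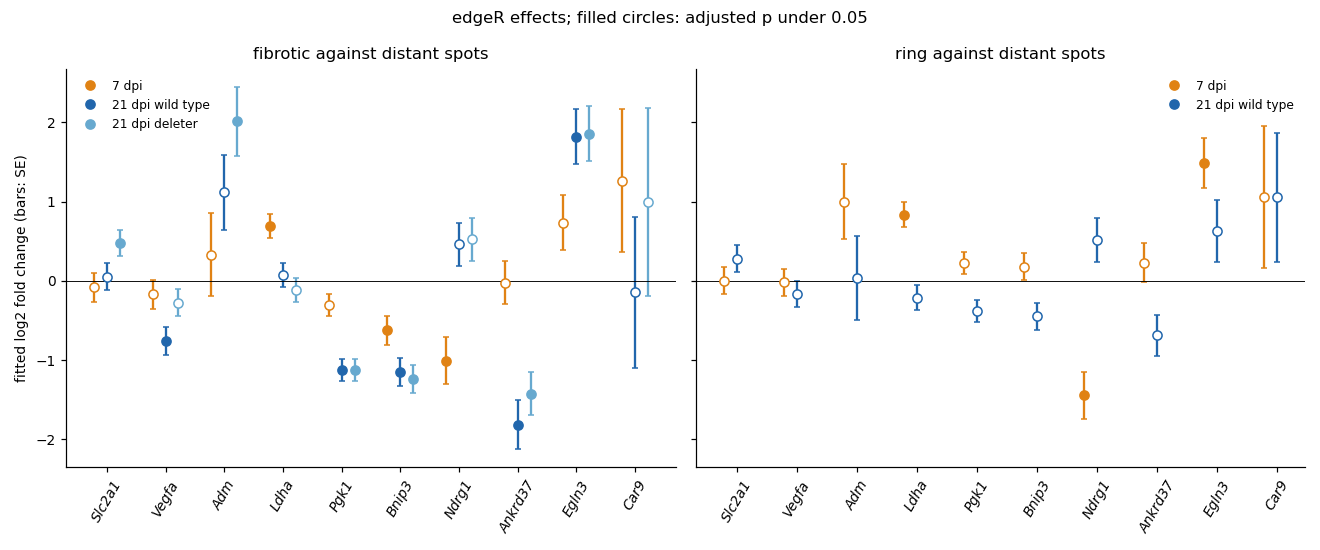
Log2 fold changes of fibrotic and ring against distant spots are plotted for each member with their standard errors, by group; filled points passed an adjusted p of 0.05 in edgeR's test. In fibrotic spots Pgk1, Bnip3 and Ankrd37 lie below 0 and Egln3 above 0 in both groups at 21 dpi, and Ldha and Egln3 lie above 0 in the ring at 7 dpi (0.83 and 1.48).

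The rest of the pathway was read from 7 lists written from textbook knowledge. Their counts in fibrotic spots stand beside shares over all genes of 24.2% higher and 23.1% lower at 7 dpi, and of 28.0% and 28.6% in WT slices at 21 dpi. Oxygen sensing in fibrotic spots had 2 of 8 genes higher and 0 lower at 7 dpi, and 3 higher and 1 lower in WT slices at 21 dpi, so the higher calls were near the share of all genes. Hif1a, the oxygen-regulated subunit found in most cells, was higher at both (1.20, adjusted p = 0.000214, and 1.00, adjusted p = 0.000472), as was its partner Arnt (0.62 and 0.58), while Epas1, the HIF-2α subunit of endothelium, was called at 21 dpi (0.83) and not at 7 dpi (0.23). In the ring at 7 dpi Hif1a was higher by 0.95.

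Most glycolysis genes were lower. Of the 17, 12 were lower and 2 higher in fibrotic spots at 7 dpi, where 23.1% and 24.2% of all genes were, and 14 lower and 3 higher at 21 dpi in WT slices, against 28.6% and 28.0%, as in deleter slices, with medians of −0.47 and −0.99 in WT slices at the 2 times. The genes of smallest adjusted p were Aldoc (−1.48), Ldhb (−1.17) and Pfkm (−1.43) at 7 dpi, and Eno2 (−2.65), Ldhb (−1.30) and Pfkm (−1.63) at 21 dpi, the first of them the enolase of neurons and Ldhb the heart-type subunit of lactate dehydrogenase. Pgk1 moved in the same direction as most of this list, and Ldha did not. Between the fibrotic spots of 7 and 21 dpi, 4 glycolysis genes were higher at 7 dpi and 0 lower, against 1.89% and 2.50% of all genes, among them Pkm (0.82), Pgam1 (0.67) and Eno1 (0.73).

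Transporters were split. Of 5 genes, 2 were higher and 1 lower at 7 dpi and 2 higher and 2 lower at 21 dpi, beside 24.2% and 23.1% and then 28.0% and 28.6% of all genes. Slc2a3, the glucose transporter of neurons, was lower (−1.48 and −2.05), and Slc16a3, which exports lactate, was higher (1.40 and 1.65), also in fibrotic spots of 7 against 21 dpi (1.86, adjusted p = 0.00503). Slc16a1, another lactate carrier, was higher in fibrotic spots at 21 dpi (1.60). Among 6 mitochondrial targets, Ndufa4l2 was higher (1.89 and 0.82) and Higd1a lower (−0.68 and −1.14), and the other 4 did not pass.

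Lists tied to matrix and vessels were higher in fibrotic spots. Of 6 matrix enzymes under HIF control, 5 were higher and 0 lower at both times, where 24.2% and 28.0% of all genes were higher, with medians of 2.12 and 2.52; Lox, which crosslinks collagen, stood at 5.75 and 5.36 and Plod2, a collagen lysyl hydroxylase, at 2.82 and 2.87. Fibroblasts express these enzymes, and the fibrotic spots were chosen by Col1a1. Of 9 genes for receptors and relatives of Vegfa and Adm, 6 were higher and 1 lower at 7 dpi and 7 higher and 1 lower at 21 dpi, against the same 24.2% and 28.0% higher, among them Nrp1 (2.05 and 3.48), Nrp2 (2.03 and 2.37), Kdr (1.39 at 7 dpi) and Ramp2 (2.01 at 21 dpi), although Vegfa itself was not higher. Of 14 other targets tested, 4 were higher and 1 lower at 7 dpi and 3 higher and 2 lower at 21 dpi, near or below the shares of all genes. Among them, Angptl4 (3.58 and 3.71), a secreted regulator of lipid uptake, and Hk2 (1.48 and 2.31), a hexokinase, were higher, while Tfrc, the transferrin receptor, was lower (−1.17 at 21 dpi). Hmox1, a haem oxygenase that macrophages express, was higher in fibrotic spots at 7 dpi (2.40) and higher there than at 21 dpi (2.07, adjusted p = 0.00130), and Angptl4 was likewise higher in the fibrotic spots of 7 than of 21 dpi (1.03). Hk2 counts in both this list and glycolysis.

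The genes whose levels most resembled those of the members were sought over 20 sums (18 compartment sums, the slice at 2 dpi and the slice at rest) among 12544 genes, as a description without a test, since the sums share slices and differ in cell mix and depth. Bnip3 was closest to Tpi1 (Pearson r = 0.966), Nav3 and Aldoa, and Pgk1 to Pgam1 (0.949), Gapdh and Cops6, so that glycolysis genes stood first for both. Egln3 was closest to Htr2b (0.954), Cd36 and Cndp2, and Ndrg1 to Rbl2 (0.95), Synm and Fgfr2. Slc2a1 was closest to Slc7a5 (0.781), an amino acid carrier of the blood–brain barrier, Samd14 and Nos3, the nitric oxide synthase of endothelium. Ankrd37 led with Vps13c (0.919), Vegfa with Rnf41 (0.885) and Ldha with Ascc3 (0.881), and Adm and Car9, with 355 and 185 UMIs over the sums, were too sparse. Among the members themselves, Pgk1 went with Bnip3 (r = 0.901) and Ankrd37 (0.816), and Ldha with Egln3 (0.703) and against Ndrg1 (−0.877). The highest r of Slc2a1 with another member was 0.308, with Adm.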

How the data were processed

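Per the labels and the study's methods, the authors cut 10-µm frozen slices onto Visium slides, sequenced the libraries and aligned them to mm10 with Space Ranger 2.0.0; the deposited matrices hold raw UMI counts per gene and spot, not normalized, and only spots over tissue were used. Slices were separated as connected pieces of spots, 2 per area. UMIs were summed over the spots of a slice and compartment, since spots are not replicates, and given per 10000. No replicate exists at rest or 2 dpi: values have exact Poisson intervals, ratios exact conditional binomial intervals (95%), and a gene counted as past 2-fold with at least 20 UMIs over both classes. For 7 and 21 dpi, edgeR 4.0.16 (quasi-likelihood, TMM, filterByExpr, R 4.3.3) was fitted on 18 sums with the slice as block and compartment effects per group, and separately on 6 fibrotic and 6 whole-slice sums; p-values were adjusted over all genes tested (Benjamini-Hochberg, 0.05), and DESeq2 1.42.0 was an alternative. In the first fit the p-values measure how the difference between compartments varies from slice to slice. In the other fits they measure the spread of levels between slices. All groups, of 2 slices each and with the deleter pair among them, share the estimate of the spread. All 10 members passed the filter in the first fit and 9 (not Car9) in the fibrotic fit. The script was tested on simulated counts.

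The members, the lists and the tests were chosen with earlier results of these data known. Named were the 10 members, for each list the 3 genes of smallest adjusted p, and for members with at least 500 UMIs the 3 genes of highest Pearson r of log2(CPM + 1). Genes were tested by identifier, with the symbols of the files. A gene of the other HIF targets and a marker of oligodendrocytes are not reported here and were left out of their lists. Alternatives were other fibrotic thresholds (10 Col1a1 UMIs per 10000, or at least 3 UMIs), other comparison spots, library size without TMM, no filter, no edge spots, no slice block, WT slices alone, other depth limits at 2 dpi (1000 and 5000), and each slice left out in turn. At 2 dpi, totals without mitochondrial genes were also used.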

Additional observations from a re-analysis of the deposited data

How the results depend on the processing

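Of the 20 member results called by edgeR, 9 kept their call and direction under every alternative; over all 291 values of these results under alternatives, 268 did. The effects of Pgk1, Bnip3, Ankrd37 and Egln3 in fibrotic spots at 21 dpi were among the 9. The Car9 effect in fibrotic spots at 21 dpi was reversed, at 2.25 without slice 1 (−2.49 to 2.25 with single slices left out). For the difference of the fibrotic effects, DESeq2 called 195 genes in place of 48, library size without TMM 87, no edge spots 187, no filter 905, a threshold of 10 Col1a1 UMIs 9, WT slices alone 13, and single slices left out 0–227. For the difference of the ring effects, where edgeR called 0, DESeq2 called 65, no edge spots gave 13, no filter 440 and single slices left out 0–312. Without a filter, the fibrotic spots of 7 against 21 dpi had 1317 calls in place of 583 (251–633 with slices left out). WT against deleter spots had 171 without a filter in place of 3, 9 with DESeq2 and 5 without edge spots (2–93). Whole slices had 345 with DESeq2 in place of 1, 436 without a filter, 6 in WT slices alone and 0 without edge spots (0–2). A threshold of 10 Col1a1 UMIs raised the ring calls at 21 dpi from 2028 to 3046. Leaving out slices gave 364–1983 there, 19–2910 in the ring and 3317–6968 in fibrotic spots at 7 dpi. The slice, which pairs the compartments of one mouse, was the block; with no replicate block the ring calls were 913 at 21 dpi in place of 2028 and 1605 at 7 dpi in place of 2746, and those of the fibrotic difference 0. At 2 dpi, RNA-poor spots under 1000 UMIs put 3897 genes past 2-fold in place of 1797, and Adm then had 1 UMI and a ratio of 1.30. The cause was not tested. Depth limits Adm and Car9 most, with 355 and 185 UMIs in all.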

Other observations

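At 2 dpi, some other genes linked to HIF were high beside the RNA-poor patch, as values of 1 slice, picked from several lists after they were seen, where 5.65% of all genes were at least 2-fold higher. Against spots farther out, spots 1–2 steps from the patch held Slc16a3 at a ratio of 5.03 (57 and 109 UMIs), Hmox1 at 3.90, Hilpda, a lipid droplet gene, at 3.18, and Hif1a at 2.17. Others of these lists were not, such as Tfrc at 1.18, Mxi1 at 1.01, Bhlhe40 at 0.925, Insig2 at 0.785 and Ak4 at 0.515. Glycolysis genes were split, with Gapdh at 0.854, Pfkp at 0.576 and Ldhb at 0.507, below 1, and Pfkfb3 (1.68), Hk2 (1.65) and Pkm (1.23) above it. Against rest, the deep spots at 2 dpi held Hmox1 at 23.3-fold (740 and 45 UMIs) and Hk2 at 6.09-fold, where 15.5% of all genes were at least 2-fold higher. The microglia and macrophage list was at 2.92 there against 0.679 at rest, and the neutrophil list at 0.931 against 0.0305. The neuron list was lower, at 24.3 against 46.8. Their part in these ratios was not tested. Car12, which the choroid plexus also expresses, stood at 12.9-fold, in a slice whose choroid plexus list was at 222 UMIs per 10000 against 5.49 at rest.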
